A study of Homo sapiens with 6 samples.

Results

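The 10 genes described here belong to the bone morphogenetic protein (BMP) and activin pathway and were measured in U251 cells, an established human glioblastoma line. They comprise the ligands INHBA and BMP4, the secreted antagonists FST, FSTL3 and FSTL1, the receptors BMPR1A and BMPR2, and the target genes ID1, ID2 and ID3. All 10 were found by symbol among the 20330 Ensembl genes that each table lists. They were chosen by a reading of the FPKM values of the same comparison, control against overexpression, so the differences of these 10 genes are descriptions with no test.

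The study compared control U251 cells with U251 cells made to overexpress, stably, a long noncoding RNA named XLOC013218, with 3 libraries per group described by the submitters as independent biological replicates. Nothing in the labels says whether the replicates were separate cultures or clones, or what the control cells carry, so p-values measure the spread between these 6 libraries only. XLOC013218 was not itself analysed here. Levels are FPKM, that is, fragments per kilobase of transcript scaled to the mapped fragments of the library, as the authors deposited them.

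As background, BMPs and activins are dimeric ligands of the TGF-beta superfamily that join type I and type II serine/threonine kinase receptors. The receptors phosphorylate SMAD proteins, SMAD1, SMAD5 and SMAD9 after BMPs and SMAD2 and SMAD3 after activins, and these enter the nucleus with SMAD4. ID genes are among the best known direct targets of BMP signalling. Their proteins carry a helix-loop-helix but no DNA-binding region, and so take E proteins out of DNA-binding dimers. In neural tissue BMPs favour astrocyte differentiation, and in glioblastoma both BMP signalling and ID proteins have been studied for their part in stem-like cells.

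The stretches before the transcription starts of the 4 ID genes and of FSTL1 are shown because ID1, ID2, ID4 and FSTL1 had groups without overlap, with ID3 as the paralogue whose groups overlapped. Each run holds the 250 bases before the RefSeq start (build GRCh38.p14), 5′ to 3′ on the gene's strand. ID1 lies at chr20:31605039-31605288 (plus strand), ID2 at chr2:8681806-8682055 (plus), ID3 at chr1:23559502-23559751 (minus), ID4 at chr6:19837120-19837369 (plus) and FSTL1 at chr3:120450993-120451242 (minus). Capitals mark matches, on either strand, to TATAAA, the core of the TATA box, to CCAAT, the CCAAT box, or to GGCGCC, a GC-rich site that BMP-activated SMADs can bind.
ID1: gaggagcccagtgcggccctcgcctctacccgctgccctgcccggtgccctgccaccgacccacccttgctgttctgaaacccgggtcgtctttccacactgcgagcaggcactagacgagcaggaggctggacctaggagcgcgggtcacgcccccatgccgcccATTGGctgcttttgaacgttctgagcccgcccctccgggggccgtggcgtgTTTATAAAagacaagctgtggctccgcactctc
ID2: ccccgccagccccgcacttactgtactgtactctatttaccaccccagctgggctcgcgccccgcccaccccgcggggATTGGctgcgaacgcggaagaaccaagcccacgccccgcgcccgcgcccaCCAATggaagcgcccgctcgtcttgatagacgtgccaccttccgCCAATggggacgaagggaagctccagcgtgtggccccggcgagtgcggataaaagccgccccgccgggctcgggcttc
ID3: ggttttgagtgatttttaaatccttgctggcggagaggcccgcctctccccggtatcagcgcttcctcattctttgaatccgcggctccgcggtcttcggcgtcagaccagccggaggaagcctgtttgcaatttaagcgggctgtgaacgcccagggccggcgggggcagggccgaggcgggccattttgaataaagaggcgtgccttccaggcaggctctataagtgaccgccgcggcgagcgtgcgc
ID4: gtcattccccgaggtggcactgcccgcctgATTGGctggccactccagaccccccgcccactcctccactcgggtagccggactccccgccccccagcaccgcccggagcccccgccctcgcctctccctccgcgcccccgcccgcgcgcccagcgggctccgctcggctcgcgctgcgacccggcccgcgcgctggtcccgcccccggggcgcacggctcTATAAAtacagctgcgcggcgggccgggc
FSTL1: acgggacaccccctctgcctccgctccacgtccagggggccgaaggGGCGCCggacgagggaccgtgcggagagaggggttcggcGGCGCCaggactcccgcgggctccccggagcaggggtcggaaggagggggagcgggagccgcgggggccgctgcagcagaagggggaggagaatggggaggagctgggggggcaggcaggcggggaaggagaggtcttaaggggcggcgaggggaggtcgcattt

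TATAAA was present in ID1, as a pair of overlapping matches on opposite strands 33 and 31 bases before the start, and in ID4, 29 bases before it. Over all 35116 RefSeq promoters of the same length it was present in 10.7%. CCAAT had 1 match in ID1, 3 in ID2 and 1 in ID4, against a share of 32% of all promoters with at least 1. FSTL1 held 2 matches to GGCGCC, which 16.4% of promoters hold, and the 4 ID genes held none in this window. The palindrome GTCTAGAC (0.182% of promoters) and the E-box CACGTG (6.34%) had no match in the 5 sequences, and ID3 matched none of the motifs searched. A match is a description of the letters and not a shown binding site, and the motifs do not overlap each other.

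Across the study, 61 of 11731 tested genes passed a limma adjusted p of 0.05, which is 0.52% of them, with 37 higher (0.315%) and 24 lower (0.205%) in overexpressing cells. Genes averaging 1 FPKM or more across the libraries were tested. At an unadjusted p under 0.05 the share was 12.7%. The 3 overexpression values lay entirely outside the range of the 3 control values in 18.9% of tested genes, above it in 8.81% and below it in 10.1%. After rescaling to TPM, the 61 calls split into 30 higher and 31 lower. The median difference over all tested genes was -0.00078 on the log2(FPKM + 1) scale.

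Of the 10 genes, 9 passed the filter on low values, and INHBA did not. Without overlap between groups, ID1 and ID2 were higher and FSTL1 was lower, beside 8.81% and 10.1% of all tested genes, and the other 6 that passed the filter overlapped. The median difference of the 9 was 0.09 on the log2(FPKM + 1) scale. Since this contrast was known when the genes were chosen, nothing is read from these counts and no test of the 10 genes is given.

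**Figure D1:**
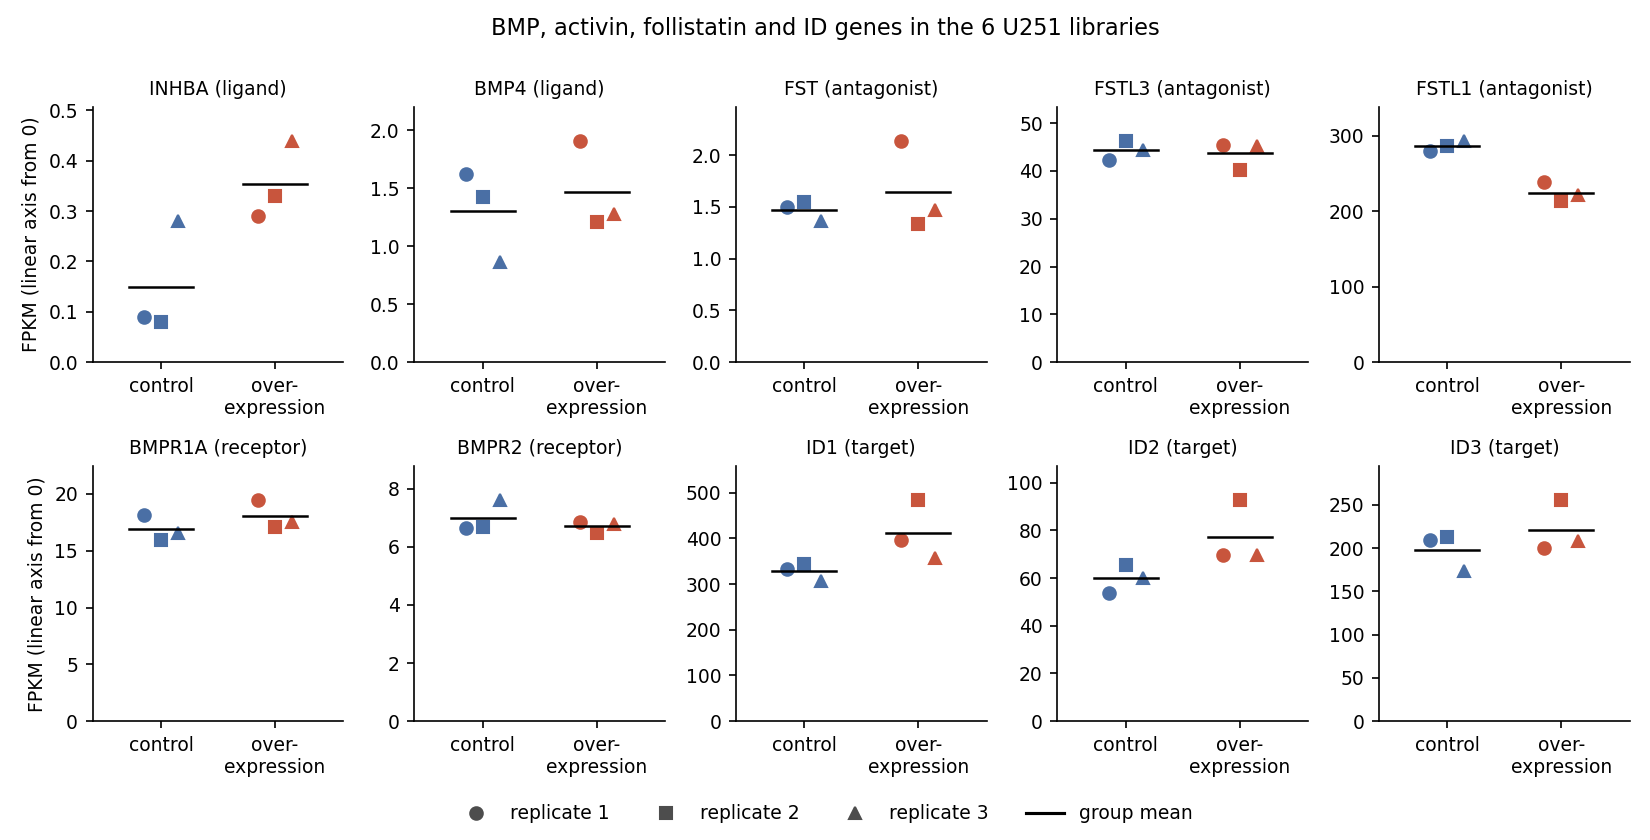
Level of each of the 10 genes in FPKM (vertical axes, linear from 0, scaled per gene) in the 3 control and 3 overexpression libraries (horizontal axis), with the replicate number as the marker and a line at the group mean. ID1, ID2 and INHBA have all overexpression values above the control values, FSTL1 has all of them below, and the other genes overlap.

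The ligands of the set were present at low levels. INHBA (ENSG00000122641, chromosome 7) encodes the beta A subunit of activin A and of inhibin A, and it was at 0.09, 0.08 and 0.28 FPKM in control replicates 1 to 3 and at 0.29, 0.33 and 0.44 FPKM in overexpression replicates 1 to 3. The groups did not overlap, but control replicate 3 lay within 0.01 FPKM of the lowest overexpression value. The means were 0.150 ± 0.113 and 0.353 ± 0.0777 FPKM (SD, n = 3 per group), a difference of 0.24 on the log2(FPKM + 1) scale that became 0.93 with a pseudocount of 0.1. At this level the size of the difference is set mostly by the pseudocount, and INHBA was not tested. The antisense gene INHBA-AS1 overlaps INHBA, and the sources used here do not say whether counting used strand, so reads from either cannot be told apart.

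BMP4 (ENSG00000125378, chromosome 14), a BMP ligand, was at 1.62, 1.42 and 0.86 FPKM in the control libraries and at 1.91, 1.21 and 1.28 FPKM in the overexpression libraries. Its groups overlapped, with the highest value in overexpression replicate 1 and the lowest in control replicate 3, and its log2 difference of 0.10 was smaller than the within-group SD of 0.24. The difference ran from -0.04 to 0.21 when 1 library was left out.

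Of the 28 other ligand genes listed, 26 were found and 4 were tested, while 4 were at 0 in all 6 libraries, BMP2 among them. None passed the limma threshold over all genes. GDF15, a distant family member that is induced by cell stress and acts through its own receptor GFRAL, had the highest level, at 100.74, 99.55 and 95.78 FPKM in the control libraries and at 146.32, 122.13 and 176.33 FPKM in the overexpression libraries. All overexpression values of GDF15 were above the control values, and its log2 difference of 0.57 (SE 0.11) missed the threshold (limma adjusted p = 0.0646). It passed without overexpression replicate 2, the lowest of its group (log2 difference 0.6975, limma adjusted p = 0.0141), and over all alternatives its adjusted p in limma ran from 0.0141 to 0.2104. GDF11, a ligand of the activin receptors, was lower without overlap, at 11.4 ± 0.607 and 10.02 ± 0.681 FPKM (limma adjusted p = 0.437). AMH, at 8.39 ± 1.13 and 8.93 ± 0.442 FPKM, and BMP6, at 1.93 ± 0.182 and 1.92 ± 0.0635 FPKM, overlapped between groups. GDF11 overlaps the protein-coding gene SARNP on the other strand, so its value is uncertain. INHBB, the beta B subunit of activin B, was at 0.01 to 0.09 FPKM.

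Ligand precursors are cut by proprotein convertases such as FURIN, and BMP1, a metalloprotease despite its name, cleaves the antagonist chordin. Of 4 tested genes of this kind none passed. BMP1 was at 59.4 ± 1.04 and 51.9 ± 6.19 FPKM and PCSK7 at 23.4 ± 1.80 and 20.8 ± 1.28 FPKM, both without overlap between groups (limma adjusted p = 0.353 and 0.427). PCSK5 was at 1.84 ± 0.143 and 1.56 ± 0.111 FPKM, also without overlap (limma adjusted p = 0.647). Over all tested genes, 10.1% were lower without overlap. FURIN was at 41.8 ± 1.81 and 42.6 ± 2.73 FPKM. The median log2 difference of the 4 was -0.15.

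The receptors of the set differed little between groups. BMPR1A (ENSG00000107779, chromosome 10), a type I BMP receptor, was at 18.17, 15.97 and 16.58 FPKM in the control libraries and at 19.50, 17.07 and 17.49 FPKM in the overexpression libraries. Overexpression replicate 1 was the highest and the groups overlapped, with means of 16.9 ± 1.14 and 18.02 ± 1.299 FPKM. BMPR2 (ENSG00000204217, chromosome 2), a type II receptor for BMPs, was at 6.64, 6.68 and 7.62 FPKM in the control libraries and at 6.84, 6.46 and 6.79 FPKM in the overexpression libraries. All 3 overexpression values of BMPR2 lay below control replicate 3, while 2 of them lay above control replicates 1 and 2. The log2 differences were 0.09 for BMPR1A and -0.05 for BMPR2, within the SDs of 0.09 and 0.07 between libraries of a group.

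In control cells the order of receptor levels, all in FPKM and so per length, was BMPR1A (15.97 to 18.17), ACVR1 (8.82 to 9.86), BMPR2 (6.64 to 7.62), ACVR1B (4.43 to 5.43), ACVR2A (2.40 to 3.33), BMPR1B (1.29 to 1.73) and ACVR2B (0.63 to 1.07). No neighbours in this order overlapped. BMPR1A made up 66.7% ± 1.72 of the summed FPKM of BMPR1A, BMPR1B and BMPR2 in control and 68.2% ± 1.19 in overexpressing cells. ACVR1, a type I receptor for BMPs, was at 8.75 ± 0.344 FPKM in overexpressing cells, ACVR1B, the main type I receptor for activins, at 4.93 ± 0.860 FPKM and ACVR2A, a type II receptor for both, at 3.11 ± 0.0889 FPKM, none past the threshold (limma adjusted p = 0.642, 0.9697 and 0.816). ACVR2B, at 0.807 ± 0.133 FPKM, was not tested.

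**Figure D2:**
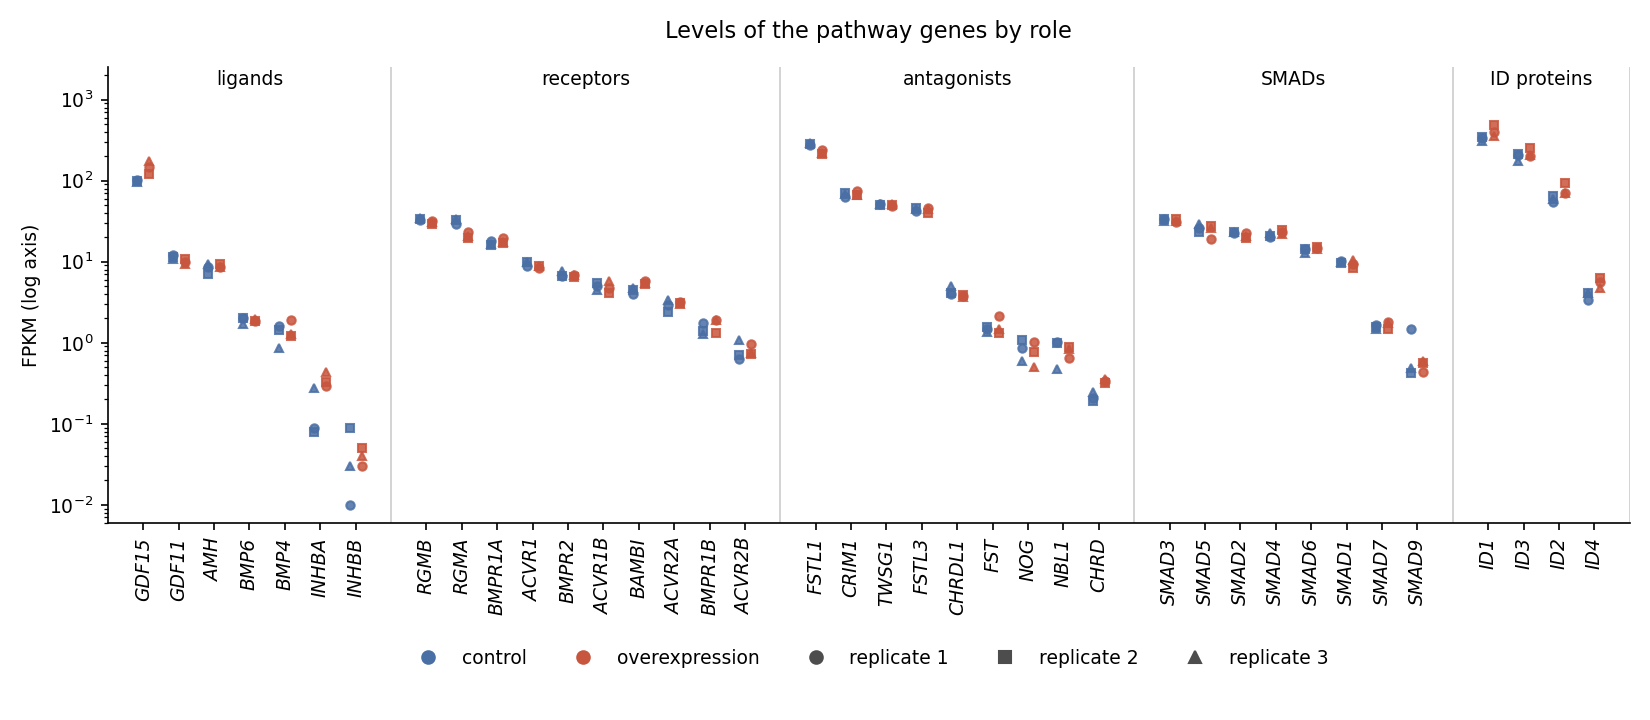
FPKM (vertical axis, log scale) of pathway genes by role (horizontal axis), with 3 control and 3 overexpression libraries per gene and the replicate number as the marker. The antagonist FSTL1 and the target ID1 are at 213.13 FPKM or more in every library, whereas INHBA stays below 1 FPKM.

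Among the co-receptors, RGMA (ENSG00000182175, chromosome 15), a glycolipid-anchored BMP co-receptor that is also an axon guidance protein, fell, at 29.56, 32.86 and 33.90 FPKM in the control libraries and at 23.60, 19.74 and 20.74 FPKM in the overexpression libraries. All overexpression values were below the control values, and RGMA was the only 1 of 67 tested pathway genes outside the set to pass (log2 difference -0.57, SE 0.08, limma adjusted p = 0.0278). It did not pass with a block for the replicate number (limma adjusted p = 0.07799), with no filter on low values (0.158) or in 5 of the 6 fits that left out 1 library (up to 0.1155); it passed without overexpression replicate 1 (0.0497). RGMA overlaps a transcribed pseudogene on its own strand (AC087641.1), so its value is uncertain to the extent that reads were shared. Its paralogue RGMB was also lower without overlap between groups, at 33.6 ± 1.03 and 30.8 ± 1.62 FPKM, and did not pass (log2 difference -0.12, limma adjusted p = 0.441). RGMB lay above RGMA in every library of both groups. The ranges of the 2 genes overlapped in control cells, where RGMB was at 32.46 to 34.41 FPKM, and did not overlap in overexpressing cells.

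BAMBI, a decoy receptor without a kinase domain and itself a target of BMP and TGF-beta signalling, was at 4.04, 4.43 and 4.74 FPKM in the control libraries and at 5.84, 5.26 and 5.48 FPKM in the overexpression libraries. Its groups did not overlap, and the log2 difference of 0.27 (SE 0.10) did not pass (limma adjusted p = 0.288). Of the 8 tested receptor and co-receptor genes outside the set, RGMA was lower, 0 were higher and 7 did not pass, with a median of -0.02. At an unadjusted p under 0.05 limma gave 6 higher and 4 lower of all 67 pathway genes outside the set, 10 in all, beside 5.81% higher and 6.9% lower (12.7% in all) over all tested genes.

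Of the 3 antagonists of the set, FSTL1 alone had groups without overlap. FSTL1 (ENSG00000163430, chromosome 3), a secreted glycoprotein with a follistatin domain that can bind BMP4 and also acts outside this pathway, was at 279.27, 286.55 and 293.59 FPKM in the control libraries and at 238.37, 213.13 and 221.70 FPKM in the overexpression libraries. Every overexpression library was below every control library, and the mean was 21.7% lower, or, in log2, -0.35 with a within-group SD of 0.06. Leaving out 1 library moved this difference between -0.40 and -0.32. The host transcript of FSTL1 also holds the microRNA gene MIR198, which the FPKM tables do not separate here.

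FSTL3 (ENSG00000070404, chromosome 19), which binds and neutralises activins, was at 42.38, 46.37 and 44.37 FPKM in the control libraries and at 45.48, 40.30 and 45.20 FPKM in the overexpression libraries. The groups overlapped, with overexpression replicate 2 the lowest of the 6 libraries and control replicate 2 the highest, and the log2 difference of -0.02 was smaller than the SD of 0.08. FST (ENSG00000134363, chromosome 5), follistatin, the classical activin-binding antagonist, was at 1.5, 1.55 and 1.36 FPKM in the control libraries and at 2.14, 1.33 and 1.47 FPKM in the overexpression libraries. Its higher mean rested on overexpression replicate 1: the log2 difference of 0.09 became -0.04 without that library. In every library the order was FSTL1, FSTL3, FST, with no overlap. FSTL1 made up 86.2% ± 0.464 of the summed FPKM of these 3 genes in control and 83.2% ± 0.539 in overexpressing cells. FSTL3 made up 13.4% ± 0.444 and 16.2% ± 0.568 and FST 0.443% ± 0.0364 and 0.606% ± 0.124, all 3 without overlap between groups. The levels of FSTL3 and FST themselves overlapped, and the sum that divides them fell with FSTL1, from 332 ± 8.30 to 270 ± 15.7 FPKM.

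The profiles most like that of FST, by Pearson correlation of log2(FPKM + 1) over the 6 libraries, were those of ANKRD40 (r = 0.997), GVQW3 (r = 0.987) and FKBP2 (r = 0.984). These 3 were picked as the highest among 11731 genes over only 6 libraries, and 29 genes reached an r of at least 0.95 with FST. In all 3 genes overexpression replicate 1 was the highest library, as it was for FST, which follows from how they were picked. ANKRD40 ranged only from 19.07 to 20.16 FPKM.

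Of 18 other antagonist genes listed, 17 were found, 3 were tested and 3 were at 0 throughout, GREM1 among them. None of the tested passed. CRIM1, a membrane protein that binds BMPs, was at 67.9 ± 3.65 and 68.8 ± 5.38 FPKM, and TWSG1, a chordin partner, at 51.4 ± 1.22 and 50.4 ± 1.16 FPKM. CHRDL1, a chordin relative, was at 4.39 ± 0.515 and 3.77 ± 0.0819 FPKM without overlap (limma adjusted p = 0.551). The classical antagonists were low: NOG was at 0.50 to 1.07 FPKM, NBL1 at 0.47 to 1.02 FPKM, and CHRD at 0.217 ± 0.0306 and 0.340 ± 0.0200 FPKM, and they were not tested. NBL1, CHRD and CRIM1 overlap neighbouring protein-coding genes in the GENCODE annotation, so their values are uncertain.

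Other proteins with a follistatin domain showed no shared direction. Of 6 tested, none passed and the median was -0.02. SPARC, a matricellular protein, was at 1517 ± 100.01 and 1444 ± 39.8 FPKM, and AGRN, a heparan sulfate proteoglycan, at 118 ± 2.03 and 121 ± 8.31 FPKM. SPOCK1, a proteoglycan of the same family as SPARC, was at 90.6 ± 10.3 and 78.0 ± 17.9 FPKM with overlapping groups. IGFBP7 was higher without overlap, at 92.9 ± 7.75 and 108 ± 7.25 FPKM (limma adjusted p = 0.257). HTRA1, a secreted serine protease, was lower without overlap, at 44.4 ± 0.560 and 40.1 ± 0.931 FPKM (limma adjusted p = 0.268).

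The SMAD genes carry the signal from the receptors to the nucleus. Of 25 tested SMADs and regulators none passed, and their median log2 difference was -0.03. SMAD1 was at 9.93 ± 0.189 and 9.44 ± 1.04 FPKM, SMAD5 at 26.3 ± 2.84 and 24.2 ± 4.35 FPKM and the shared partner SMAD4 at 21.2 ± 1.19 and 23.2 ± 1.09 FPKM (limma adjusted p = 0.806, 0.751 and 0.4898). The inhibitory SMADs, which BMP and TGF-beta signals induce as feedback, were at 13.9 ± 0.977 and 14.7 ± 0.527 FPKM for SMAD6 and at 1.57 ± 0.0954 and 1.67 ± 0.157 FPKM for SMAD7 (limma adjusted p = 0.735 and 0.896). SMAD4 and FKBP1A each overlap another protein-coding gene on the same strand, so their values are uncertain. SMAD9 was at 1.46 FPKM in control replicate 1 and between 0.42 and 0.60 FPKM in the other 5 libraries, and it was not tested. The regulators at the highest levels were FKBP1A, which binds type I receptors, at 151 ± 1.67 and 147 ± 3.32 FPKM, STRAP at 84.6 ± 3.21 and 80.8 ± 4.97 FPKM, TOB1 at 53.3 ± 2.04 and 51.9 ± 0.913 FPKM and TGIF1, a co-repressor, at 35.4 ± 2.18 and 36.9 ± 6.91 FPKM.

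**Figure D3:**
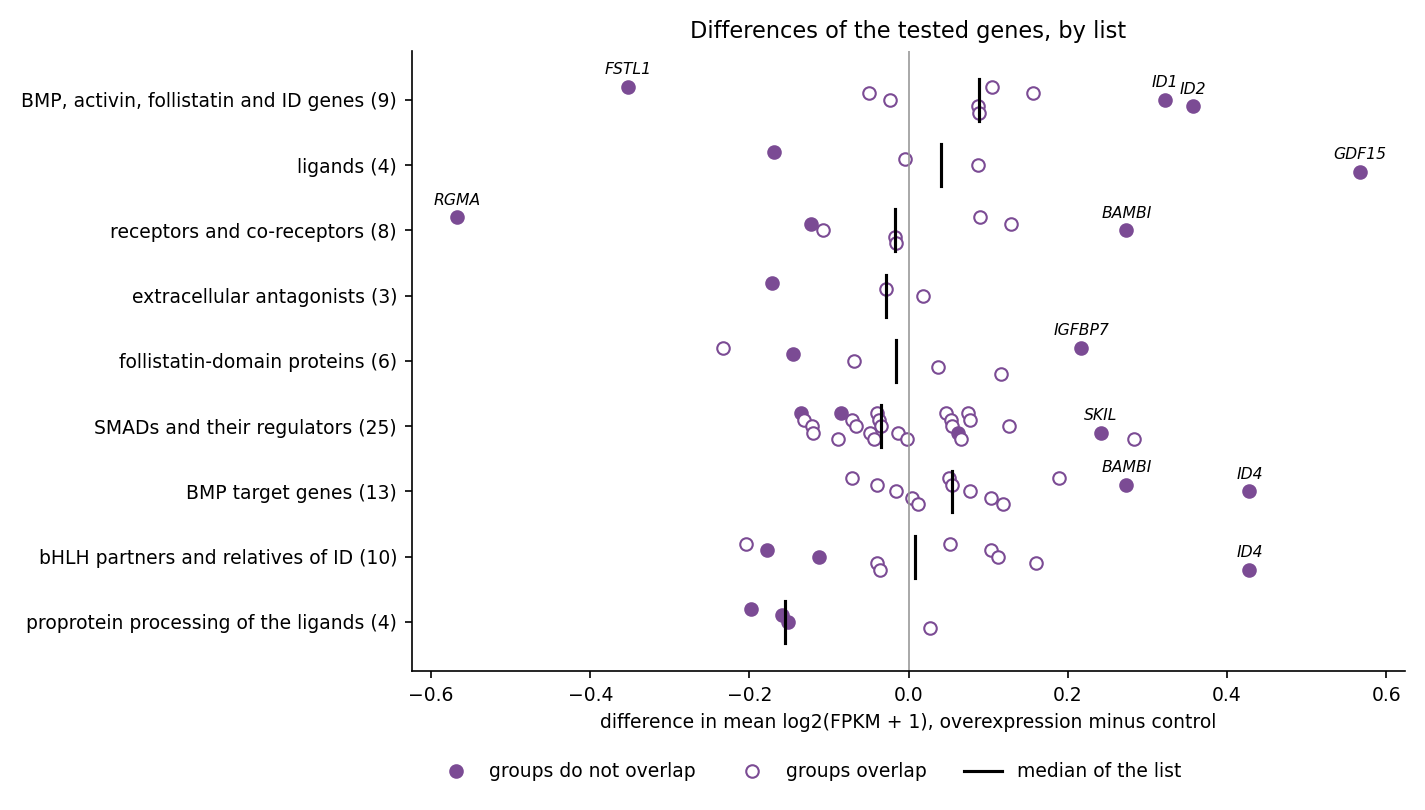
Difference in mean log2(FPKM + 1), overexpression minus control (horizontal axis), for the tested genes of the set (top row) and of each pathway list without the set (other rows, number of genes in brackets). Filled points have groups that do not overlap and black bars mark medians, which lie between -0.15 and 0.09.

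The targets of the set are ID1, ID2 and ID3, of which ID1 and ID2 lay higher in overexpressing cells. ID1 (ENSG00000125968, chromosome 20) was at 333.31, 343.88 and 305.77 FPKM in the control libraries and at 395.50, 484.58 and 357.51 FPKM in the overexpression libraries. The groups did not overlap, overexpression replicate 2 was the highest, and the means of 328 ± 19.7 and 413 ± 65.2 FPKM differed by 25.9%. ID2 (ENSG00000115738, chromosome 2) was at 53.86, 65.46 and 60.18 FPKM in the control libraries and at 69.53, 92.88 and 69.81 FPKM in the overexpression libraries, again without overlap and with overexpression replicate 2 highest, and its means differed by 29.4%. ID3 (ENSG00000117318, chromosome 1) was at 209.05, 212.32 and 173.03 FPKM in the control libraries and at 199.57, 255.88 and 208.63 FPKM in the overexpression libraries. ID3 overlapped: 2 of its 3 overexpression values lay within the control range.

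In log2 the differences were 0.32 for ID1, 0.36 for ID2 and 0.16 for ID3, with within-group SDs of 0.17, 0.19 and 0.18. Without overexpression replicate 2 they were smaller, 0.20, 0.22 and 0.05. ID4 (ENSG00000172201, chromosome 6), the fourth paralogue and not part of the set, was at 3.33, 4.13 and 4.15 FPKM in the control libraries and at 5.6, 6.37 and 4.73 FPKM in the overexpression libraries. The values of ID4 did not overlap either, overexpression replicate 2 was again the highest, and the log2 difference of 0.43 (SE 0.13) did not pass (limma adjusted p = 0.192). ID2 and ID4 have antisense genes within their spans (ID2-AS1 and AL022068.1), so the reads of the partners cannot be told apart. The same holds for FSTL1, BMPR1A, BMPR2, RGMB, ACVR2A, ACVR2B, PCSK5, PCSK7, IGFBP7, HTRA1, SPARC, BMP1 and SMAD1. It also holds for SMAD2, SMAD5, SMURF1, TOB1, GATA2, GATA3, RUNX2, TCF4, TCF12 and BHLHE40. Each of these overlaps a gene on the other strand, and BMPR2 also overlaps a processed pseudogene on its own strand (AC073410.1).

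In each of the 6 libraries the order was ID1, ID3, ID2, ID4, with no overlap between neighbours. ID1 made up 55.6% ± 0.673 of the summed FPKM of the 4 genes in control and 57.5% ± 1.61 in overexpressing cells, ID3 33.6% ± 1.54 and 30.9% ± 1.45, ID2 10.2% ± 1.08 and 10.8% ± 0.358, and ID4 0.660% ± 0.104 and 0.777% ± 0.0513. These shares overlapped between groups for ID1, ID2, ID3 and ID4. The 4 genes together summed to 589 ± 42.2 FPKM per control library and to 717 ± 107 FPKM per overexpression library, without overlap.

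**Figure D4:**
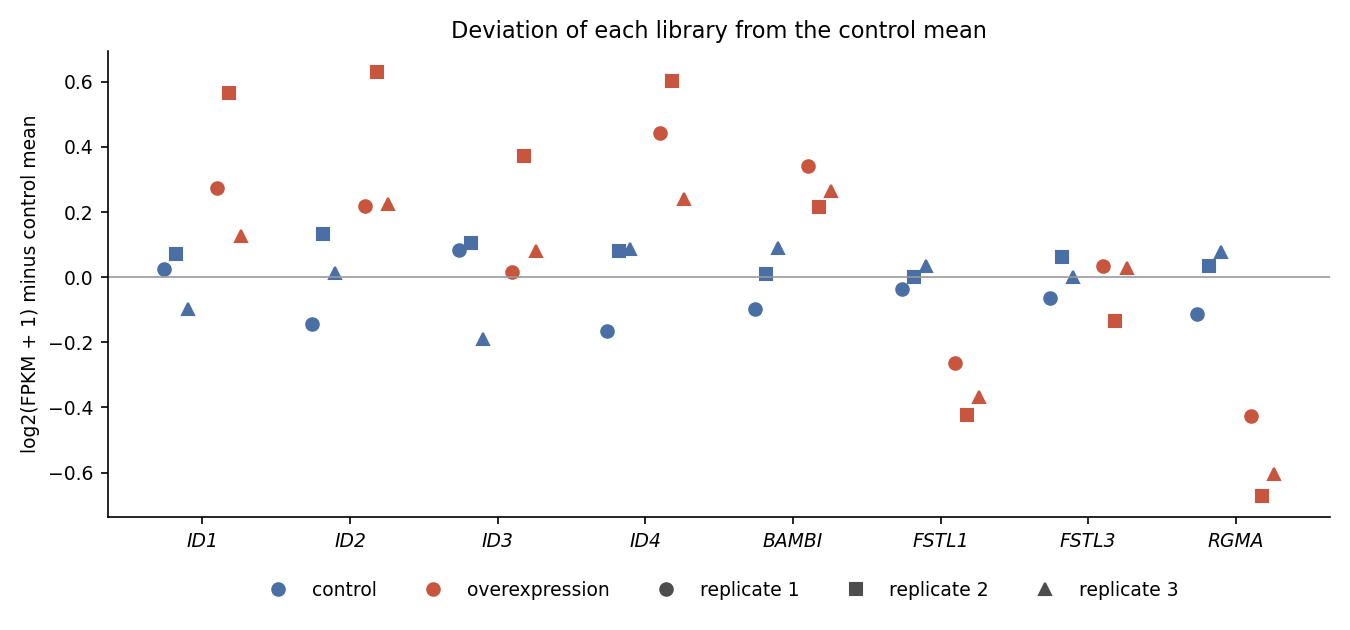
Deviation of each library's log2(FPKM + 1) from the control mean (vertical axis) for the 4 ID genes and for BAMBI, FSTL1, FSTL3 and RGMA (horizontal axis), with the replicate number as the marker. Overexpression replicate 2 is the highest library for each ID gene, at 0.56 for ID1 and 0.63 for ID2, and the lowest for FSTL1 and RGMA.

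The gene profile most like that of ID1 over the 6 libraries was that of SBDS (r = 0.9995, log2(FPKM + 1)), followed by GNG11 (r = 0.993) and EPB41L4B (r = 0.991), and 49 tested genes reached an r of at least 0.95. SBDS ranged only from 65.71 to 73.07 FPKM, so profiles alike in shape differed widely in size.

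Of 13 tested BMP target genes outside the set none passed in limma. Only ID4 and BAMBI of these were without overlap, both higher, beside 8.81% higher and 10.1% lower over all tested genes. The median of this list was 0.05. GATA2, at 25.8 ± 2.36 and 24.5 ± 2.30 FPKM, GATA3, at 23.4 ± 1.32 and 24.4 ± 3.39 FPKM, RUNX2, at 10.3 ± 0.506 and 10.4 ± 0.623 FPKM, and MSX2, at 3.29 ± 0.517 and 3.25 ± 0.60 FPKM, overlapped between groups. MSX1, a homeobox target of BMPs, was at 4.85 ± 0.849 and 5.63 ± 0.335 FPKM (limma adjusted p = 0.577).

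ID proteins bind the E proteins, encoded by TCF3, TCF12 and TCF4, and of these genes TCF3 had the highest level. TCF3, which encodes E12 and E47, was at 218.69, 222.01 and 220.03 FPKM in the control libraries and at 196.11, 209.70 and 179.24 FPKM in the overexpression libraries. Its values were lower without overlap, and its log2 difference of -0.18 (SE 0.06) did not pass (limma adjusted p = 0.256). TCF12, at 38.0 ± 1.81 and 39.4 ± 0.433 FPKM, and TCF4, at 13.0 ± 0.430 and 12.7 ± 1.10 FPKM, overlapped. Of 10 tested helix-loop-helix genes outside the set, none passed. HES1, a Notch target, was at 27.1 ± 1.6 and 29.4 ± 1.80 FPKM with overlapping groups. BHLHE40, a stress and clock regulator, was lower without overlap, at 63.5 ± 1.06 and 58.8 ± 5.38 FPKM (limma adjusted p = 0.543). Of all 67 tested pathway genes outside the set, 18 had groups without overlap, 6 higher and 12 lower, beside 8.81% and 10.1% of all tested genes, and the median of the 67 was -0.02.

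TGFBI, a TGF-beta-induced matrix protein outside these lists, rose by 0.94 in log2 (limma adjusted p = 0.000461). SKIL, a SMAD co-repressor that TGF-beta and activin induce, was at 17.3 ± 1.35 and 20.6 ± 0.308 FPKM without overlap and did not pass (limma adjusted p = 0.196). Of the 25 tested SMADs and regulators, SKIL and SMURF1 were higher without overlap, and SMAD2 and SKI were lower. Over all tested genes these shares were 8.81% and 10.1%. SMURF1 was at 20.9 ± 0.0611 and 21.9 ± 0.450 FPKM (limma adjusted p = 0.715). SMAD2 was at 23.0 ± 0.448 and 20.9 ± 1.32 FPKM and SKI at 25.1 ± 0.582 and 23.6 ± 0.365 FPKM (limma adjusted p = 0.439 and 0.582).

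The cell type label was checked against markers. VIM, CD44, NES, SOX2 and SOX9 were present at 45.2 FPKM or more on average in control cells, and S100B was under 1 FPKM. The 7 glioma and astrocyte markers summed to between 5068 and 5451 FPKM in control and to between 4788 and 5010 FPKM in overexpressing cells, lower without overlap. Most of this sum was VIM, at 3840 ± 222 and 3581 ± 109 FPKM, and CD44, at 1178 ± 71.9 and 1088 ± 62.9 FPKM. VIM, CD44, NES, SOX9 and S100B each overlapped between groups, so the lower sum does not describe the markers 1 by 1. SOX2, a stem cell transcription factor, was at 116.85, 118.66 and 113.83 FPKM in the control libraries and at 102.27, 104.78 and 98.1 FPKM in the overexpression libraries, also lower without overlap (limma adjusted p = 0.1202). GFAP, the astrocyte filament protein, was at 34.68, 45.98 and 44.13 FPKM in the control libraries and at 30.05, 14.36 and 20.43 FPKM in the overexpression libraries, without overlap and lowest in overexpression replicate 2, where the ID genes were highest (limma adjusted p = 0.107). The 4 leukocyte markers summed to between 6.76 and 7.66 FPKM in control and to between 10.05 and 11.8 in overexpressing cells, nearly all of it CD68, a lysosomal protein of many cell types. CD3E was at 0 in all 6 libraries, AIF1 at 0 in 5 and PTPRC at most at 0.65 FPKM. The 3 neuron markers summed to between 9.56 and 10.38 FPKM in control and to between 8.65 and 11.28 FPKM in overexpressing cells. The epithelial, endothelial and oligodendrocyte lists each stayed below 1 FPKM in sum. The endothelial marker PECAM1 was not found, so that sum covers VWF and CDH5 only. The part of these marker differences in the results on the ID genes and FSTL1 was not tested.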

How the data were processed

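RNA sequencing libraries of U251 cells were analysed, 3 control and 3 overexpressing XLOC013218, each assigned from its title. The authors deposited 1 table of FPKM per library, rounded to 2 decimals. The submitters' processing notes name the build hg18 and, with no roles, Cufflinks 2.2.1, TopHat, Bowtie, edgeR and RSEM 1.3.1. The labels' protocols name poly(A) selection, whereas the design text describes cytoplasmic RNA without it. FPKM carry no read totals, so depth in reads is unknown and no counting interval is given. Summed FPKM were between 598682.9 and 621921.6. Symbols matched 19447 of 20330 identifiers, and sequences come from RefSeq (GRCh38.p14).

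The 11731 genes that every table lists and that averaged 1 FPKM or more were tested on log2(FPKM + 1) with limma 3.58.1 (limma-trend, group as the only term, two-sided, Benjamini-Hochberg adjustment) in R 4.3.3. This scale understates changes of low genes. Summaries used Python 3.11.15. On simulated data with 11731 genes for this comparison, 91% of changes of 1 in log2 and 59.4% of changes of 0.5 were recovered. The simulation changed 200 genes and drew independent normal errors, whereas 61 genes were called in the data. Recovery depends on how many genes change, so these shares need not hold for the data. The labels do not say whether libraries with the same replicate number pair. Correlations of their deviations lay between -0.0576 and 0.0446, which cannot exclude a pairing that touched only part of the genes. The 10 genes, the pathway lists and the tests were chosen with earlier results of these data known. Named were the 10 genes, list genes past the threshold, the 4 most abundant of each list, counted with the 10 genes, and a fixed set of pathway genes. HTRA1, CHRDL1, SPOCK1, GATA3, BMPR1B, SKIL, SKI, SMURF1, SMAD2, MSX1, MSX2 and RUNX2 were added after their values were seen.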

Additional observations from a re-analysis of the deposited data

How the results depend on the processing

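Over all tested genes, 37 passed higher and 24 lower. With no filter on low values 1 was higher and 0 lower, with the replicate block 14 and 5, and with 1 library left out between 1 and 48 were higher and between 0 and 12 lower. Of the pathway genes outside the set, 1 (RGMA) passed lower. This became 0 with no filter and 0 with the replicate block, and lay between 0 and 1 with 1 library left out, while the number higher lay between 0 and 1, the 1 being GDF15 without overexpression replicate 2. With a pseudocount of 0.1 the log2 difference of INHBA was 0.93 in place of 0.24, since the pseudocount sets the scale of so low a gene. Leaving out 1 library moved the list medians of log2 differences from -0.126 to 0.0777 for receptors, from -0.0801 to -0.0118 for follistatin-domain proteins, from -0.0400 to 0.0104 for SMADs and regulators, from 0.0257 to 0.104 for BMP targets and from -0.184 to -0.105 for ligand processing. For the set other than INHBA, differences moved by less than 1 within-group SD with a pseudocount of 0.1, TPM or quantile normalization. In the other alternatives this could not be otherwise. The block and the missing filter leave a difference unchanged, and leaving out 1 of 3 libraries always moves it by less than 1 SD. The differences of FSTL1, ID1, ID2, ID3 and BMPR1A kept their sign in all 11 alternatives. For FSTL1, ID1 and ID2, whose groups did not overlap, only TPM and quantile normalization could have changed the sign. Leaving out a library or changing the pseudocount could not. For ID3 and BMPR1A, whose groups overlapped, leaving out a library could have changed it. Those of BMP4, FST, FSTL3 and BMPR2 changed sign in at least 1 fit that left out a library. Whether same-numbered libraries pair is not known, so the calls lost under the block, RGMA among them, depend on that choice of fit. Depth in reads is unknown, which limits what can be said of genes under 1 FPKM such as INHBA.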
